A study of Mus musculus with 4 samples.

Results

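The immediate early response genes examined here were 10 genes given as a list, *Fos*, *Fosb*, *Jun*, *Junb*, *Egr1*, *Btg2*, *Ier2*, *Ier3*, *Atf3* and *Zfp36*. Each was read at every probe set that the array annotation assigns to that symbol alone. All 10 were found, at 12 probe sets, since *Jun* and *Btg2* had 2 each, called the first and the second below by their identifier numbers. The array names 18193 genes at 34945 probe sets that carry a single gene symbol.

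Immediate early genes are transcribed within minutes of a stimulus, without new protein synthesis, because the factors that switch them on are already in the cell and need only to be phosphorylated. Growth factors, cytokines, oxidative or toxic injury and mechanical handling of tissue all induce them, and in liver they are known from the first hours after partial hepatectomy or a hepatotoxin. Most of their transcripts and proteins are short-lived. A single time point therefore shows the state of the tissue at the moment it was taken.

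RNA came from non-tumorous liver of 2 G9aΔHep mice, labelled G9aKO and carrying *Alb-Cre* with *G9a* flox/flox, and of 2 WT mice with *Alb-Cre* and *G9a* +/+. All were male, backcrossed to C57BL/6 and 30 weeks old, and all had received 25 mg/kg of the carcinogen DEN at 15 days of age and then 22 weekly injections of 0.5 ml/kg CCl4, a hepatotoxin. *Alb-Cre* deletes the floxed gene in hepatocytes. The authors still found some G9a protein in whole G9aΔHep liver, and named other liver cells as its probable source. Each RNA was hybridised to 1 Affymetrix whole-genome mouse array. The interval between the last CCl4 injection and the collection of the liver, and how the tissue was handled, were stated in no source used here.

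Levels are given as MAS5 signals, which are linear intensities scaled on each array, and every probe set carries a detection call, Present when it was detected and Absent when it was not. The trimmed mean signal was 500.0 on each array, and 41.3% to 43.9% of all probe sets were Present. The 95% quantile of Absent signals lay between 170.5 and 181.1, so that differences below that level are uncertain. Signals correlated at r = 0.970 and 0.971 between arrays of 1 genotype and at 0.959 to 0.967 between genotypes, over 17158 probe sets. At the *Ehmt2* probe set that was detected, the gene that encodes G9a had signals of 174 and 164 in G9aΔHep liver, both Absent, and of 640 and 492 in WT liver, both Present (adjusted p = 0.0612 from limma). The probe set entered the test through its WT calls alone. Both G9aΔHep signals lay near the 95% quantile of Absent ones, so that the size of the difference is uncertain. Whether that probe set lies in the deleted part was not determined. The labelled tissue was borne out by the hepatocyte markers, all 8 of which, *Alb* and *Hnf4a* among them, were Present on at least 2 arrays. The arrays measure whole tissue, in which more cells of a type and more RNA per cell cannot be told apart.

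Promoter sequences of 8 of the 10 genes, all but *Egr1* and *Ier2*, were at hand from RefSeq on GRCm38.p6, spanning 250 bases before to 50 after the start of the gene. These windows were searched on both strands for 6 short motifs known from immediate early promoters. The core of the cyclic AMP response element, TGACG, was in 5 of the 8 windows (*Btg2*, *Atf3*, *Fosb*, *Junb* and *Fos*) and in 20.8% of all 32851 promoter windows. The complete palindrome TGACGTCA, which contains the core on each strand, was in the *Btg2* window alone among them and in 1.79% of all. A CArG box, the core of the serum response element, was in the *Zfp36* window alone among them and in 1.63% of all. The TATA box letters TATAAA were in the *Fos* and *Junb* windows (13.6% of all). Neither the AP-1 site TGACTCA (5.2% of all) nor the EGR1 site GCGTGGGCG (0.612% of all) was in any of the 8. Elements outside these windows were not searched. The stretches below show parts of the windows of 4 members in which these motifs stand, up to the base before the start. They span 250 bases for *Btg2* and 100 for the others, on the strand of the gene, with each of the motifs above in capitals. *Fos* is at chr12:85473790-85473889 on the plus strand, with a core 66 bases and a TATA box 33 bases before the start. A further core of *Fos*, 129 bases before the start, lies outside the printed stretch. *Atf3* is at chr1:191183334-191183433 on the minus strand, with a core in reverse 7 bases before the start. *Btg2* is at chr1:134079156-134079405 on the minus strand, with the palindrome 166 bases before the start. *Zfp36* is at chr7:28379229-28379328 on the minus strand, with the CArG box 58 bases before the start.
Fos: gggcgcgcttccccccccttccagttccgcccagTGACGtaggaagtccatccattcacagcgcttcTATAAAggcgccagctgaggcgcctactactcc
Atf3: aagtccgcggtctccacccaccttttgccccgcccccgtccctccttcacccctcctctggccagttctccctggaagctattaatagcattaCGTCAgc
Btg2: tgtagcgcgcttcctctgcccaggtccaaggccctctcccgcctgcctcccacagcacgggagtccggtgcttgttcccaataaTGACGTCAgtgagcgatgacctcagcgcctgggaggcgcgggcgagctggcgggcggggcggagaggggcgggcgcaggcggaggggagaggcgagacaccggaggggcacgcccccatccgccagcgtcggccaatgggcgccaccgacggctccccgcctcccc
Zfp36: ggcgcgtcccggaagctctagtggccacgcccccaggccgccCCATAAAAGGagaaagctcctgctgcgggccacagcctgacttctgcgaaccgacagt

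The level of *Egr1*, a zinc finger transcription factor, differed most between the genotypes. Its signals were 3170 and 1345 on the G9aΔHep arrays and 384 and 456 on the WT arrays, Present on all 4. The lower G9aΔHep array thus stood 2.95-fold above the higher WT array. The 2 G9aΔHep livers themselves differed 2.36-fold, whereas the WT livers lay close together. The means were 2257 ± 1290 in G9aΔHep and 420 ± 51.0 in WT liver (SD, n = 2 each). The log2 fold change of 2.30 (SE 0.38, 95% interval 1.4 to 3.21) was above that of 99.6% of the 17158 probe sets tested, and it did not pass the threshold after Benjamini-Hochberg adjustment (adjusted p = 0.102 from limma).

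AP-1 is a dimer of Jun and Fos family proteins that binds DNA through basic leucine zippers. *Jun* encodes an activating subunit, *Junb* a weaker one that can restrain it, and *Fos* and *Fosb* the partners that bind only as dimers with Jun proteins. *Jun* was measured at 2 probe sets. At the first the signals were 1386 and 759 in G9aΔHep liver and 467 and 511 in WT liver, and at the second they were 881 and 496 in G9aΔHep liver and 477 and 317 in WT liver. At both probe sets the 2 genotypes did not overlap, although at the second the nearest arrays differed only 1.04-fold. The log2 fold changes were 1.07 (SE 0.29, adjusted p = 0.341) and 0.77 (SE 0.33, adjusted p = 0.545).

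*Junb* had signals of 425 and 238 in G9aΔHep liver and of 136 and 285 in WT liver, the first WT value being Absent. The genotypes overlapped, since WT replicate 2 lay above G9aΔHep replicate 2 (log2 fold change 0.69, SE 0.43, adjusted p = 0.671). *Fos* was called Present on 1 array alone, G9aΔHep replicate 1. Its signals were 480 and 213 in G9aΔHep liver and 76.8 and 148 in WT liver, and the 3 Absent signals carry no order. *Fos* did not enter the main test, and in a fit without a detection filter it had an adjusted p of 0.572. *Fosb* was Absent on all 4 arrays, at 12.8 and 53.6 in G9aΔHep liver and 71.6 and 38.7 in WT liver, signals that carry no order. *Atf3*, a related leucine zipper protein of the stress response that can repress transcription, had 210 and 165 in G9aΔHep liver and 129 and 95.1 in WT liver. It was Present on all 4 arrays, but 3 of its 4 signals lay below the 95% quantile of Absent ones (log2 fold change 0.75, SE 0.33, adjusted p = 0.546).

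*Btg2*, an antiproliferative gene induced by growth factors and by p53, stood next to *Egr1* in the size of its difference. At its first probe set the signals were 1778 and 840 in G9aΔHep liver and 331 and 469 in WT liver (log2 fold change 1.63, adjusted p = 0.228, SE 0.37). At its second they were 849 and 788 in G9aΔHep liver and 503 and 571 in WT liver (log2 fold change 0.61, adjusted p = 0.371, SE 0.17). Both probe sets showed G9aΔHep arrays above WT arrays, but the spread between the 2 G9aΔHep livers was 2.12-fold at the first probe set and 1.08-fold at the second. The probe sets therefore disagreed on how far G9aΔHep replicate 1 stood apart.

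*Ier2*, a nuclear protein of the early response, had signals of 1480 and 1174 in G9aΔHep liver and of 915 and 990 in WT liver, without overlap (log2 fold change 0.47, SE 0.18, adjusted p = 0.492). *Ier3*, an early response protein that modulates survival under NF-κB signalling, had 302 and 146 in G9aΔHep liver and 196 and 151 in WT liver. Here G9aΔHep replicate 2 was the lowest of the 4 arrays and replicate 1 the highest (log2 fold change 0.29, SE 0.40, adjusted p = 0.854). *Zfp36* encodes tristetraprolin, which binds AU-rich elements and speeds the decay of transcripts, those of several cytokines and early genes included. Its signals were 1885 and 1935 in G9aΔHep liver and 1205 and 1880 in WT liver, so that WT replicate 1 alone stood apart and the nearest arrays of the genotypes differed 1.003-fold (log2 fold change 0.34, SE 0.22, adjusted p = 0.679).

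**Figure D1:**
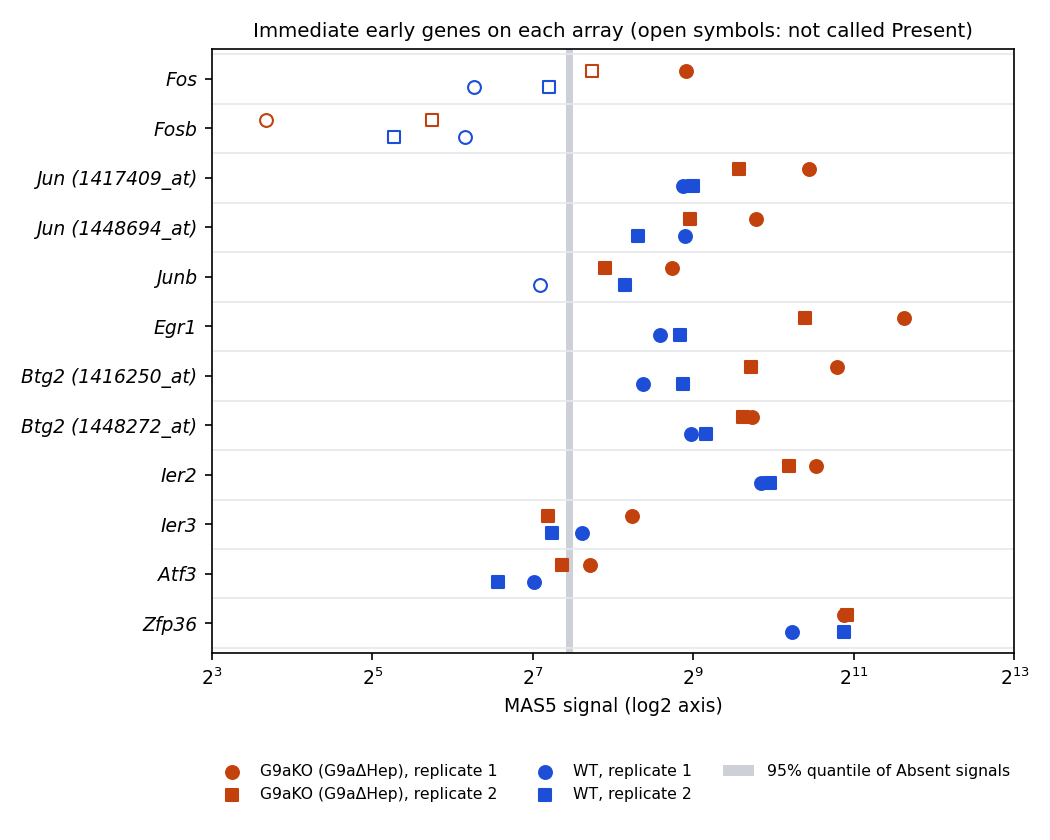
Signals (MAS5, log2 axis) of the 10 immediate early genes at their 12 probe sets, for 2 G9aKO (G9aΔHep) arrays and 2 WT arrays; circles are replicate 1, squares replicate 2, open symbols were not called Present, and the grey band spans the 95% quantiles of Absent signals. *Egr1* runs over 3170 and 1345 in G9aΔHep and 384 and 456 in WT liver, and *Fosb* is Absent throughout.

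Of the 12 probe sets, 10 were Present on at least 2 arrays and were tested, and they stand for 8 of the 10 genes. *Fos* and *Fosb* are the members left out. None of the 10 probe sets entered through one genotype alone, as each was Present on at least 1 array of both. After adjustment in limma, 0 of the 10 passed 0.05 as higher and 0 as lower in G9aΔHep liver, against 0.233% and 0.0466% of all 17158 probe sets tested. At an unadjusted p under 0.05, 5 of the 10 were higher, *Egr1*, *Jun* at its first probe set, *Ier2* and both *Btg2* probe sets, and 0 were lower. The background was 5.36% higher and 3.95% lower. By the methods' t-test 0 passed after adjustment, and 1, *Btg2* at its second probe set, had an unadjusted p under 0.05.

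All 10 tested probe sets had a log2 fold change above 0 (52.8% of all probe sets tested), between 0.29 and 2.30, with a median of 0.72 against 0.02 over all probe sets tested. Both G9aΔHep arrays lay above both WT arrays at 8 of the 10, *Junb* and *Ier3* being the exceptions, against 21.7% of all. Both lay below at 0 of the 10, against 19.4% of all. The probe sets of 1 gene share their RNA and members of this response are known to be induced together, so that these counts are not 10 independent observations. With 2 mice per genotype, 0.333 is the smallest two-sided p that exact permutation of the arrays allows.

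**Figure D2:**
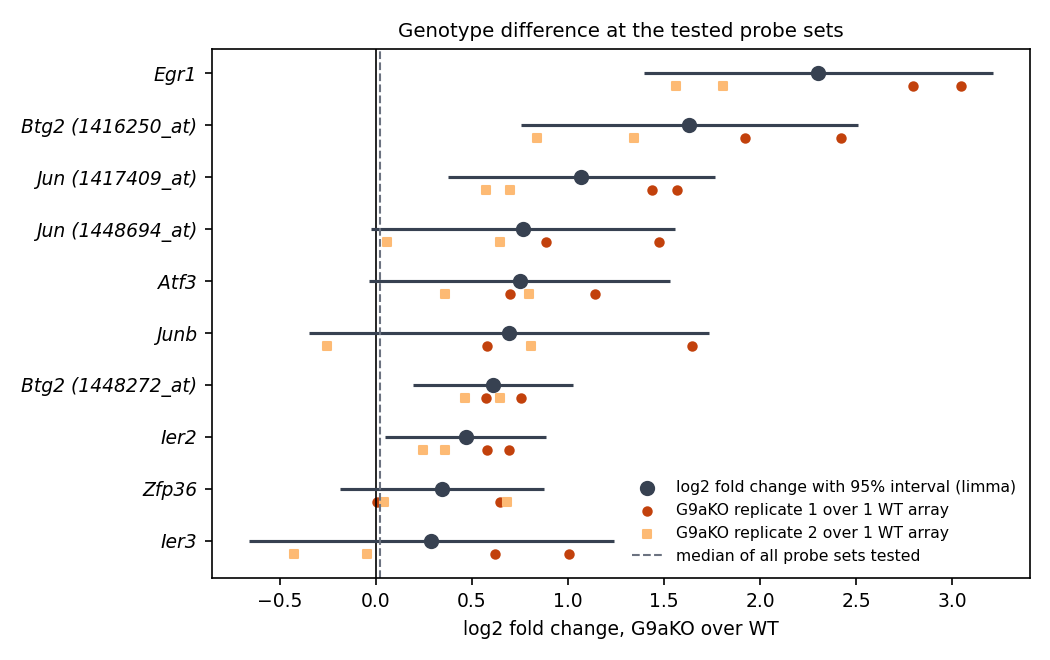
Log2 fold change, G9aKO over WT, at the 10 tested probe sets, with 95% intervals from limma; small symbols are ratios of 1 G9aKO array to 1 WT array, circles for G9aKO replicate 1 and squares for replicate 2, and the dashed line is the median of all probe sets tested. *Egr1* lies highest at 2.30, and single ratios of *Junb* and *Ier3* fall on both sides of 0.

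The 2 G9aΔHep livers differed from each other at most of these genes. G9aΔHep replicate 1 had the highest signal of the 4 arrays at 9 of the 10 tested probe sets, all but *Zfp36*, against 28.5% of all probe sets tested. It lay above replicate 2 at the same number, 9 of 10, against 51% of all, whereas WT replicate 1 lay above WT replicate 2 at 3 of 10, against 50.7% of all. The median absolute log2 difference between the G9aΔHep arrays was 0.83 over the members and 0.23 over all probe sets tested. Between the WT arrays it was 0.41 over the members and 0.22 over all. At 6 of the 10 probe sets, those of *Jun*, *Junb*, *Egr1* and *Ier3* and the first of *Btg2*, the G9aΔHep arrays differed by more than the 90th percentile of all probe sets, 0.74. For the WT arrays this held for *Junb* alone, at 1.07 against a 90th percentile of 0.72. The median residual SD was 0.47 for the members and 0.20 for all probe sets tested.

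**Figure D3:**
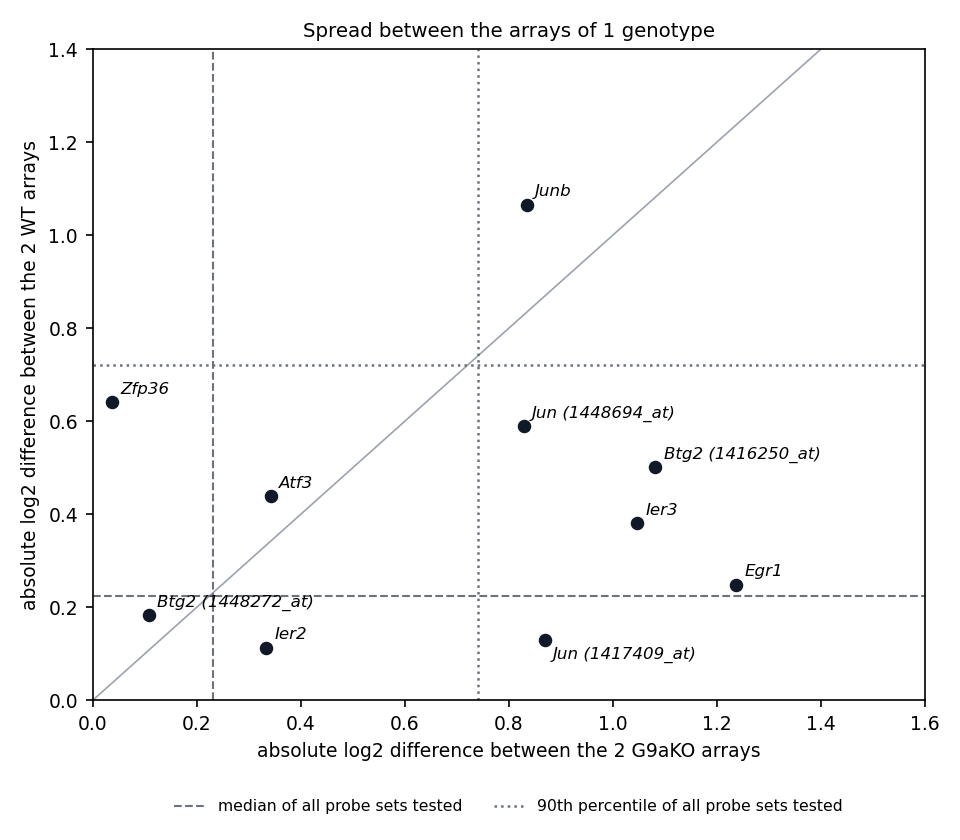
Absolute log2 difference between the 2 G9aKO arrays (x axis) and between the 2 WT arrays (y axis) for each tested probe set; dashed lines are medians and dotted lines 90th percentiles of all probe sets tested, and the solid line marks equality. *Egr1* lies at 1.24 between the G9aKO arrays and 0.25 between the WT arrays, and *Junb* is the member past the 90th percentile in both genotypes.

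The differences changed in size when 1 array was left out. Without G9aΔHep replicate 1 the median log2 fold change of the members was 0.46, that of *Egr1* was 1.69 (adjusted p = 0.0574 from limma), that of *Jun* at its first probe set was 0.64, that of *Btg2* at its first was 1.09, and *Ier3* turned to -0.23. Without G9aΔHep replicate 2 the median was 1.02, and 3 probe sets passed the threshold, *Egr1* (log2 fold change 2.92, adjusted p = 0.00483), the first of *Btg2* (2.17, adjusted p = 0.0239) and the first of *Jun* (1.5, adjusted p = 0.0476). Such a fit takes the lone G9aΔHep array to vary like the WT arrays. *Junb* had 0.16 without WT replicate 1 and 1.23 without WT replicate 2. *Zfp36* had 0.02 without WT replicate 1 and 0.66 without WT replicate 2, and the second probe set of *Jun* ranged from 0.35 without G9aΔHep replicate 1 to 1.18 without G9aΔHep replicate 2.

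Further genes of the same response were read from lists, each gene at its brightest tested probe set. Of 17 tested genes for other immediate early transcription factors, 0 passed the adjusted threshold in either direction, against 0.319% and 0.0676% of the 10350 genes tested. Before adjustment, 3 passed it as higher and 0 as lower, against 6.1% and 4.19%. Both G9aΔHep arrays lay above both WT arrays for 6 and below them for 0, against 22.3% and 19.3% of all genes. The median log2 fold change was 0.38, against 0.02 over all genes, and 16 of the 17 lay above 0 (53.4% of all genes). Without G9aΔHep replicate 1 this median was 0.15. *Klf10*, a TGF-β-inducible repressor, had signals of 1486 and 1803 in G9aΔHep liver and of 681 and 1252 in WT liver (log2 fold change 0.83, adjusted p = 0.465). *Fosl2*, a further partner of Jun, had 417 and 300 in G9aΔHep liver and 210 and 230 in WT liver (0.69, adjusted p = 0.485). *Klf6* had 581 and 382 in G9aΔHep liver and 275 and 326 in WT liver (0.65, adjusted p = 0.527). In these 3 genes, too, both G9aΔHep arrays lay above both WT arrays. *Csrnp1*, *Egr3*, *Fosl1* and *Nr4a3* were Absent on all 4 arrays.

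Of 25 tested signalling and feedback genes of the early response, 0 passed in either direction, and before adjustment 5 passed as higher and 0 as lower, against the 6.1% and 4.19% of all genes. The median was 0.32, with 21 of 25 above 0 (53.4% of all genes), and it was 0.24 without G9aΔHep replicate 1 and 0.07 without WT replicate 1. *Ier5*, a nuclear early response protein, had 749 and 696 in G9aΔHep liver and 384 and 366 in WT liver, with SE 0.18 around a log2 fold change of 0.95 (adjusted p = 0.155). Its arrays lay close together within each genotype and did not overlap. *Rhob*, a small GTPase, had 620 and 584 in G9aΔHep liver and 301 and 403 in WT liver (0.79, adjusted p = 0.35). *Socs3*, the feedback inhibitor of IL-6 signalling, had 1937 and 1008 in G9aΔHep liver and 743 and 875 in WT liver (0.79, adjusted p = 0.512), with replicate 1 apart from the other arrays. G9aΔHep replicate 1 was the highest array for 10 of the 17 transcription factors and 16 of the 25 feedback genes, against 29.9% of all genes tested.

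Of 17 tested upstream kinases and transcription factors, 0 passed the adjusted test in either direction, 1 passed as higher and 1 as lower before adjustment, against 6.1% and 4.19% of all genes, and the median was 0.04. That median turned with single arrays, to -0.01 without G9aΔHep replicate 1 and -0.03 without WT replicate 2, and it was 0.14 without G9aΔHep replicate 2. *Mrtfa*, a coactivator of serum response factor, had 183 and 165 in G9aΔHep liver and 95.08 and 95.05 in WT liver (log2 fold change 0.87, adjusted p = 0.468). Both WT signals and that of G9aΔHep replicate 2 lay below the 95% quantile of Absent ones. *Met*, the hepatocyte growth factor receptor, had 1576 and 1948 in G9aΔHep liver and 2733 and 2342 in WT liver (-0.53, adjusted p = 0.406). *Mapk9*, which encodes the Jun kinase JNK2, had a log2 fold change of 0.33 (adjusted p = 0.603).

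Lists of other responses to stress and injury had medians near 0. The median was -0.06 for 10 heat shock genes, of which 0 passed at an adjusted or unadjusted p under 0.05, and 0.0027 for 14 genes of injury and the acute phase, of which 0 passed after adjustment and, before it, 2 as higher and 1 as lower, against 6.1% and 4.19% of all genes. Both medians turned with single arrays. The heat shock median was 0.32 and the injury median -0.28 without G9aΔHep replicate 1, and they were -0.45 and 0.52 without G9aΔHep replicate 2. They were -0.33 and 0.31 without WT replicate 1, and 0.10 and -0.14 without WT replicate 2. The summed signal of the 18 injury genes on the array was 240632 and 163279 in G9aΔHep liver and 256614 and 164885 in WT liver. G9aΔHep replicate 1 was the highest array for 9 of the 14 injury genes, against 29.9% of all genes tested. The same held for 0 of the 10 heat shock genes. *Hspe1*, a mitochondrial chaperonin, and *Bag3*, a co-chaperone of Hsp70, had log2 fold changes of -0.25 (adjusted p = 0.718) and 0.23 (adjusted p = 0.773), with overlapping genotypes. *Hmox1*, the heme oxygenase induced by oxidative stress, had 1036 and 600 in G9aΔHep liver and 399 and 426 in WT liver (log2 fold change 0.93, adjusted p = 0.387). *Cxcl1*, a neutrophil chemokine, had 1122 and 856 in G9aΔHep liver and 609 and 768 in WT liver (0.52, adjusted p = 0.529). *Saa3*, a serum amyloid A protein of activated macrophages, had 780 and 1326 in G9aΔHep liver and 1709 and 1634 in WT liver (-0.72, adjusted p = 0.468). *Il6* and *Tnf* were Absent on all 4 arrays. For 7 reference genes the median was -0.08, with values of -0.22 (*Sdha*, adjusted p = 0.564) to 0.16 (*Ywhaz*, adjusted p = 0.728).

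**Figure D4:**
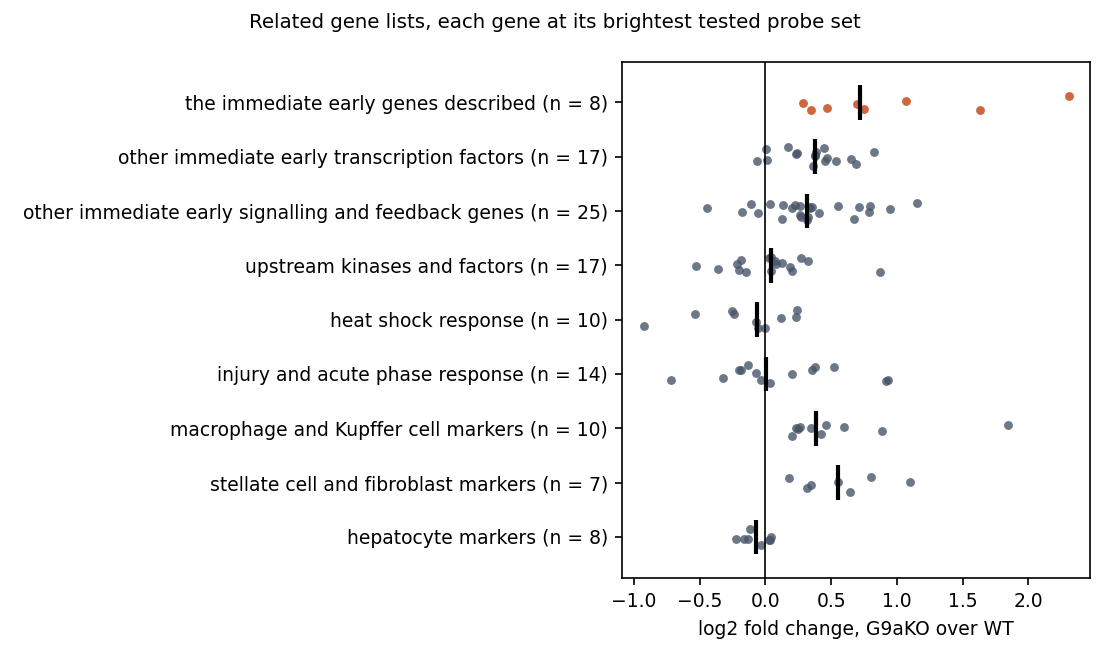
Log2 fold change, G9aKO over WT, of each tested gene at its brightest probe set, for the immediate early genes described, the related lists and 3 lists of cell type markers; bars are medians. The median of the immediate early genes is 0.72, those of the other early response lists are 0.38 and 0.32, and that of the hepatocyte markers is -0.08.

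Tested markers of macrophages and of stellate cells were highest on G9aΔHep replicate 1, and lists of other cell types differed in this. The summed signal of 10 markers of macrophages and Kupffer cells was 71815 and 46008 in G9aΔHep liver and 33454 and 48965 in WT liver, and G9aΔHep replicate 1 was the highest array for 10 of the 10. The lysozyme gene *Lyz2* had 13136 and 8087 in G9aΔHep liver and 4105 and 7611 in WT liver (log2 fold change 0.88, adjusted p = 0.492), and *Csf1r* and *Vsig4* had log2 fold changes of 0.60 and 0.46 (adjusted p = 0.545 and 0.563). The median of the 10 was 0.38. It was 0.14 without G9aΔHep replicate 1, 0.69 without G9aΔHep replicate 2, 0.10 without WT replicate 1 and 0.64 without WT replicate 2. For 8 markers of stellate cells and fibroblasts the sums were 7103 and 4266 in G9aΔHep liver and 3886 and 4183 in WT liver, with *Des* Absent on all arrays and replicate 1 highest for 7 of the 7 tested. Their median was 0.55, with 0.16 without G9aΔHep replicate 1 and 0.90 without G9aΔHep replicate 2. *Acta2*, *Col1a2* and *Lrat* had log2 fold changes of 1.10, 0.80 and 0.35 (adjusted p = 0.21, 0.547 and 0.653 from limma). *Acta2* had 531 and 405 in G9aΔHep liver and 201 and 232 in WT liver. It was Present on 2 of the 4 arrays, so that 1 genotype alone may have brought it into the test. For 8 neutrophil markers the sums were 2736 and 542 in G9aΔHep liver and 1438 and 1067 in WT liver. *Camp*, *Cxcr2*, *Elane*, *Ltf* and *Mpo* were Absent on all arrays. Hepatocyte markers summed to 464417 and 416404 in G9aΔHep liver and to 470168 and 454863 in WT liver. Endothelial markers summed to 9351 and 8809 in G9aΔHep liver and to 10907 and 8779 in WT liver, and cholangiocyte markers to 832 and 634 in G9aΔHep liver and to 410 and 427 in WT liver. The sums were 1020 and 576 in G9aΔHep liver and 717 and 664 in WT liver for B and plasma cells, 443 and 248 in G9aΔHep liver and 538 and 409 in WT liver for T and NK cells, and 1140 and 1114 in G9aΔHep liver and 1724 and 1098 in WT liver for erythroid cells. Of the genes on the array, 1 of 5 for cholangiocytes, 1 of 5 for T and NK cells and 1 of 2 for erythroid cells were tested. The sums for cholangiocytes and for T and NK cells thus rest mostly on genes too weakly detected to be tested. *Cd3e*, *Cd4*, *Cd79a* and *Hba-a1* were Absent on all arrays. No marker passed the adjusted test in either direction. Of the 9 marker lists, 5 had their highest sum on G9aΔHep replicate 1 and 4 on WT replicate 1. The ratio of 3′ to 5′ signal at the actin control probe sets, a measure of RNA integrity, was 2.54 and 2.03 in G9aΔHep liver and 2.03 and 2.23 in WT liver. At the *Gapdh* controls it was 0.763 and 0.738 in G9aΔHep liver and 0.705 and 0.688 in WT liver. The part of cell composition and of RNA integrity in the levels of the immediate early genes was not tested.

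The mean profile of the 8 tested members at their brightest probe sets, centred on each gene's own mean log2 signal, was 0.83 and 0.12 on the G9aΔHep arrays and -0.59 and -0.35 on the WT arrays. Among tested genes outside the members and all of these lists, the 5 with the smallest root mean square difference from this profile over the 4 arrays were *Arhgap4*, *Pygb*, *Zfp532*, *Zfp709* and *Clec4a2*. Their differences were 0.0133 to 0.0663 on the log2 scale. *Arhgap4* had 426 and 263 in G9aΔHep liver and 163 and 192 in WT liver. Over 4 arrays many genes can follow such a profile, and none of the 5 passed the test (adjusted p of 0.419 to 0.525 from limma).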

How the data were processed

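Gene expression was measured in 2 G9aΔHep and 2 WT livers, 1 array each, and arrays were grouped by the genotype in the labels. The authors processed the arrays with MAS5 (version not given in the sources used here). They deposited a signal, which is a linear intensity, together with a detection p-value and call for each of 45101 probe sets. A second deposited table held the same signals within a relative difference of 5e-06. Of the probe sets, 64 controls, 932 with several genes and 9160 with none were left out. Genes were named from the array annotation, checked through RefSeq identifiers of GRCm38.p6, with 0 symbols changed.

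Probe sets of a single gene with 2 or more Present calls, 17158 in all, were compared on log2 signals with limma 3.58.1 in R 4.3.3, with a mean-variance trend, no added offset, 2 residual and 4.6 prior degrees of freedom, and Benjamini-Hochberg adjustment at 0.05. The fit was checked on simulated data in which all probe sets had the same spread, so the check does not cover genes as variable as the members. The members, gene lists, markers and alternatives were chosen with earlier results of these data known. The genes named were all members, the 3 genes of each list with the smallest p where none passed (of the reference and marker lists only some are given), and the 5 with the nearest profile. Alternatives were quantile normalization, median centring, other detection filters, an offset of 16, no trend, 1 probe set per gene, the methods' t-test and leaving out each array.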

Additional observations from a re-analysis of the deposited data

How the results depend on the processing

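Among the 117 values of single member probe sets under an alternative, 113 kept their direction and their side of the threshold, 3 passed it (*Egr1*, *Btg2* and *Jun* without G9aΔHep replicate 2) and 1 turned, *Ier3*, at -0.23 without G9aΔHep replicate 1 and up to 0.81 when another array was left out. The median over the members was 0.60 to 0.75 under other normalizations, filters and the offset, and 0.46 to 1.02 when 1 array was left out. Of the members 0 passed under the alternatives that kept all arrays, and 0 to 3 when 1 array was left out. Over all probe sets, 40 higher and 8 lower ones passed. These counts were 25 and 5 without a detection filter, and 0 and 0 both without a mean-variance trend (970 and 513 at an unadjusted p under 0.05) and by the methods' t-test (685 and 667). They were 17 to 62 and 0 to 22 when 1 array was left out. *Ehmt2*, Present in WT liver alone, passed after quantile normalization (log2 fold change -1.83) and median centring (-1.79). Its log2 fold change lay between -1.92 and -1.54 without 1 array. The causes were not tested. No paired analysis was possible because replicate numbers follow the order of the arrays and pair no animals. The number of arrays limits the precision, and signals of *Fos*, *Fosb*, *Ier3* and *Atf3* lie near or below those of Absent probe sets. *Junb* was Absent on WT replicate 1 as well.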

Other observations

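Single genes of other responses and cell types varied in how they ordered the arrays. *Hspa1b*, an inducible heat shock protein of the Hsp70 family, had signals of 1551 and 4128 in G9aΔHep liver and of 3110 and 7426 in WT liver (log2 fold change -0.93, adjusted p = 0.649 from limma). G9aΔHep replicate 1, highest for most immediate early genes, was thus lowest for *Hspa1b*, and no heat shock gene of the 10 tested had its highest signal there. The neutrophil marker *S100a8* had 1331 and 174 in G9aΔHep liver and 660 and 332 in WT liver (log2 fold change 0.04, adjusted p = 0.991). *S100a9*, its partner in calprotectin, had 934 and 146 in G9aΔHep liver and 345 and 277 in WT liver (0.25, adjusted p = 0.944). For both, the G9aΔHep arrays were the highest and the lowest of the 4, as they were for the member *Ier3*. *Lyve1*, a marker of sinusoidal endothelium, had 759 and 550 in G9aΔHep liver and 1025 and 1639 in WT liver, without overlap (log2 fold change -1.0, adjusted p = 0.34). Of the other endothelial markers, *Cdh5* lay the other way without overlap, at 664 and 564 in G9aΔHep liver and 409 and 530 in WT liver (0.40, adjusted p = 0.617). Its arrays stood in the same order as those of *Egr1*. *Kdr*, *Clec4g* and *Stab2* overlapped, with log2 fold changes of -0.08, -0.05 and 0.05.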
